A study of Homo sapiens with 16 samples.

Results

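The genes described here encode the enzymes that make cholesterol and fatty acids, together with the proteins that control them. They are 28 of the 58721 genes in the deposited count table, and they were taken by name from a list of pathway members, with no threshold on measured values. 7 encode mevalonate steps, 3 the steps from squalene to lanosterol, 8 the steps from lanosterol to cholesterol, 4 the regulators of the pathway, 1 a sterol carrier and 5 fatty acid synthesis. The 16 RNA libraries come from 2 established bladder cancer lines of human origin, RT112 of the luminal papillary subtype and SCaBER of the basal/squamous subtype. Each line was transfected with 1 of 4 small interfering RNAs (siRNAs), at 10 nM by the labels, whereas the methods give an amount by mass. siFOXA1.1 and siFOXA1.2 target FOXA1, a pioneer transcription factor of luminal cells, and siControl.1 and siControl.2 are controls. Each siRNA has 2 libraries in each line, numbered in the labels as experiment batch replicates 1 and 2. All 16 libraries carried a siRNA and the same transfection reagent, and the labels give no time of harvest. RT112 was grown in RPMI medium and SCaBER in DMEM, both with serum, so line and medium cannot be told apart. The labels do not say whether the replicates were separate cultures, so the tests measure the spread between these libraries.

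Cholesterol is built from acetyl-CoA through mevalonate, isoprenoid units, squalene and lanosterol. The same acetyl-CoA, released from citrate by ATP citrate lyase, is the substrate of fatty acid synthesis. Both branches are controlled by the sterol regulatory element binding proteins (SREBPs), transcription factors made as precursors in the endoplasmic reticulum membrane. SCAP escorts the precursors to the Golgi, where they are cut and released, and INSIG proteins hold SCAP back when sterols are plentiful. SREBP2, encoded by SREBF2, acts mainly on sterol genes, whereas SREBP1, encoded by SREBF1, acts more on fatty acid genes.

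The libraries held 6622473 to 7604581 counts in RT112 and 4528513 to 6914951 counts in SCaBER. The 28 genes took 0.238% to 0.315% of the counts in RT112 and 0.236% to 0.519% in SCaBER. Levels are given as normalised CPM, counts scaled to a common library size (CPM) after TMM scaling over the 16 libraries. FOXA1 itself was at 27.6 ± 7.24 normalised CPM (SD, n = 4) in RT112 under siControl. It was at 1.38 and 3.55 under siFOXA1.1 (log2 fold change -3.44 ± 0.47 SE, adjusted p = 2.19e-05) and at 9.22 and 15.9 under siFOXA1.2 (-1.10 ± 0.39, adjusted p = 0.205). In SCaBER, FOXA1 had 3 to 15 counts in the siControl libraries, 0 and 3 under siFOXA1.1 and 0 and 6 under siFOXA1.2, too few to pass the filter on low counts. Summed levels of marker genes set the lines apart as labelled. The summed level of 7 luminal markers was 686 to 1497 normalised CPM in RT112 and 98.3 to 181 in SCaBER, although UPK3A had no count in any library. The summed level of 7 basal markers was 232 to 522 in RT112 and 1829 to 3246 in SCaBER. Tested singly under siControl, 5 of the 7 basal markers were lower in RT112 and 1 was higher, and all 5 luminal markers tested were higher. Of all genes tested, 21.2% were higher and 22.2% lower. The summed level of 4 immune markers was 0 to 0.645 in RT112 and 0 to 5.66 in SCaBER, with PTPRC and CD3E at 0 counts throughout. For 3 endothelial markers it was 2.1 to 11.3 in RT112 and 0 to 2.8 in SCaBER. The summed level of 5 stromal markers was 86.0 to 146 in RT112 and 10.0 to 42.7 in SCaBER, with COL3A1 and DCN at 0 counts throughout.

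Without FOXA1 siRNA the lines differed in the genes of both branches (the plot of levels under siControl). Among the 26 genes tested, 6 were higher and 9 lower in RT112 than in SCaBER, in a comparison in which 21.2% of the 12309 genes tested were higher and 22.2% were lower. The 9 include STARD4, which had no count in the RT112 controls. It passed the filter on low counts only through SCaBER, which fixed its direction. The count of 6 higher lies near the share of all genes. With limma on the deposited TPM values 6 were higher and 14 lower, while the median difference of all genes moved from 0.02 to -0.33. The fatty acid enzymes FASN and SCD were higher in RT112. FASN, the fatty acid synthase, was at 456 ± 60.9 normalised CPM (SD, n = 4) in RT112 and 230 ± 69.5 in SCaBER (log2 difference 0.98 ± 0.20 SE, adjusted p = 0.000887). SCD, which places a double bond in saturated fatty acids, was at 662 ± 154 in RT112 and 256 ± 29 in SCaBER (1.36 ± 0.16, adjusted p = 8.59e-06). In neither gene did the 4 libraries of 1 line overlap those of the other. SREBF1 was also higher in RT112, at 69.9 ± 12.9 against 26.1 ± 10.0 (1.41 ± 0.26, adjusted p = 0.000374), whereas SREBF2, SCAP and INSIG1 did not pass the test, with differences of 0.36 ± 0.17, -0.05 ± 0.31 and 0.06 ± 0.19.

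HMGCS1, the cytosolic HMG-CoA synthase at the entry of the mevalonate pathway, was lower in RT112. It was at 64.8 ± 23.9 normalised CPM (SD, n = 4) against 215 ± 32.8 in SCaBER (log2 difference -1.73 ± 0.23 SE, adjusted p = 2.04e-05). The late sterol enzymes went both ways. DHCR7, which makes cholesterol from 7-dehydrocholesterol, was at 128 ± 2.55 in RT112 and 251 ± 35.4 in SCaBER (-0.98 ± 0.13, adjusted p = 3.25e-05), and NSDHL and HSD17B7, both of sterol demethylation, were also lower in RT112 (-1.61 ± 0.26 and -2.27 ± 0.41). TM7SF2, a sterol reductase, was higher in RT112 at 57.3 ± 16.0 against 10.1 ± 2.75 (2.50 ± 0.28, adjusted p = 3.94e-06). STARD4, a cytosolic sterol carrier, had no count in any of the 4 RT112 siControl libraries and was at 23.1 ± 4.25 in SCaBER, at least 56.0-fold above the level that 3 counts per library would give in RT112. The other genes called were IDI1 and SC5D (higher in RT112) and ELOVL6, ACLY, FDPS and SQLE (lower in RT112). The FDPS difference of -0.66 ± 0.21 (adjusted p = 0.0175) no longer passed without SCaBER siControl.2 replicate 1 (-0.46, adjusted p = 0.0688) or without RT112 siControl.1 replicate 2 (-0.59, adjusted p = 0.0526).

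**Figure D1:**
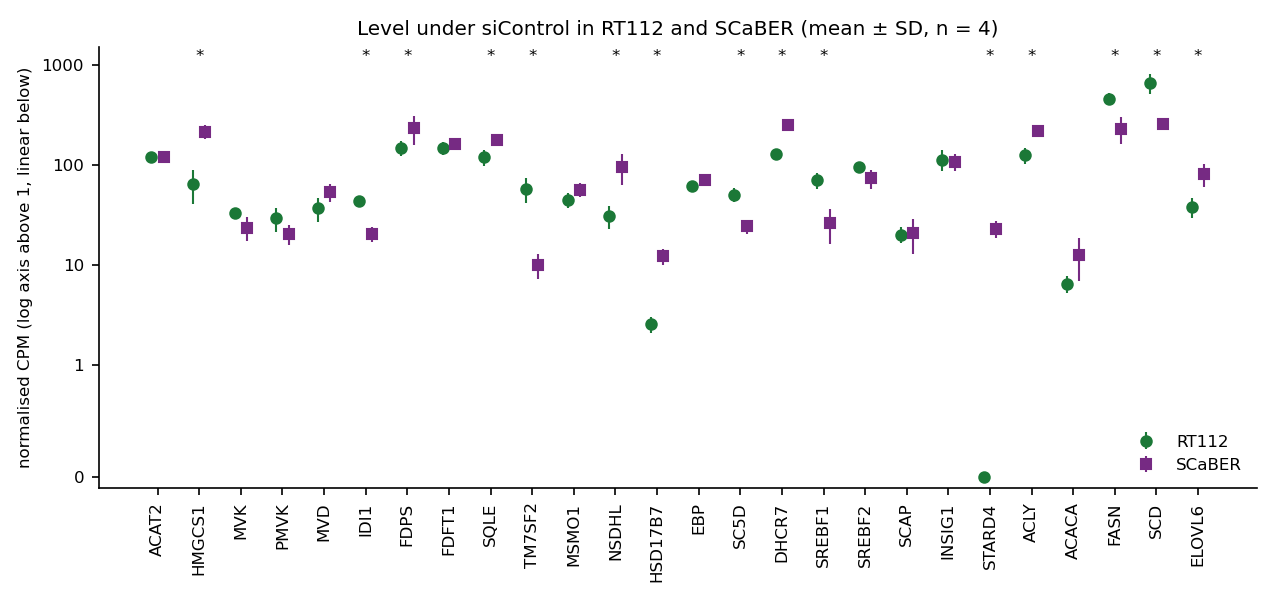
Level of the 26 genes tested (normalised CPM, logarithmic above 1) in the 4 siControl libraries of RT112 (circles) and of SCaBER (squares), with bars of 1 SD. Asterisks mark an adjusted p under 0.05 between the lines, as for HMGCS1 and DHCR7 (lower in RT112) and FASN and SCD (higher in RT112), and STARD4 sits at 0 in RT112.

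2 genes could not be followed. LSS, the lanosterol synthase, had 0 to 3 counts in every library. CYP51A1, the lanosterol demethylase, had 13 counts in SCaBER siFOXA1.1 replicate 2 and none in the other 15 libraries. In the reference annotation a same-strand gene, itself listed at 0 counts, shares up to 1685 exon bases with CYP51A1, so the CYP51A1 counts are uncertain.

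Under siFOXA1.1 several sterol genes rose in each line, and the fatty acid genes FASN and SCD fell in RT112 (the plot of fold changes by role). In RT112, 7 of the 25 genes tested were higher and 2 were lower than under siControl, against 15.6% and 17.0% of all 11986 genes tested. In SCaBER, 11 of 26 were higher, against 4.47% of all 11902 genes tested, and 0 were lower, against 4.79%. The median log2 fold change of the genes tested was 0.18 in RT112 and 0.67 in SCaBER, where the medians of all genes tested were -0.01 and 0.01. 7 genes were higher under siFOXA1.1 in both lines: HMGCS1, IDI1, FDPS, MSMO1, DHCR7, SREBF2 and INSIG1. Without RT112 siFOXA1.1 replicate 2 this left 3 (HMGCS1, DHCR7 and SREBF2), and with limma on TPM it left 1 (DHCR7). The share of all genes higher in both lines was not counted, so the overlap of 7 has no background beside it. Within batches, 15 and 16 of the 25 RT112 genes lay above the mean of the 2 controls of their own batch in batches 1 and 2. The median log2 differences from that mean were 0.04 and 0.15. In SCaBER 22 and 23 of 26 lay above the mean of their batch's controls, with medians of 0.65 and 0.61. The RT112 split differed between settings. With library totals alone, 5 genes were higher and 3 lower while the median of all genes tested moved to -0.14, and with limma on the deposited TPM values 3 were higher and 4 lower while that median moved to -0.30. In SCaBER the limma fit called 4 genes higher.

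**Figure D2:**
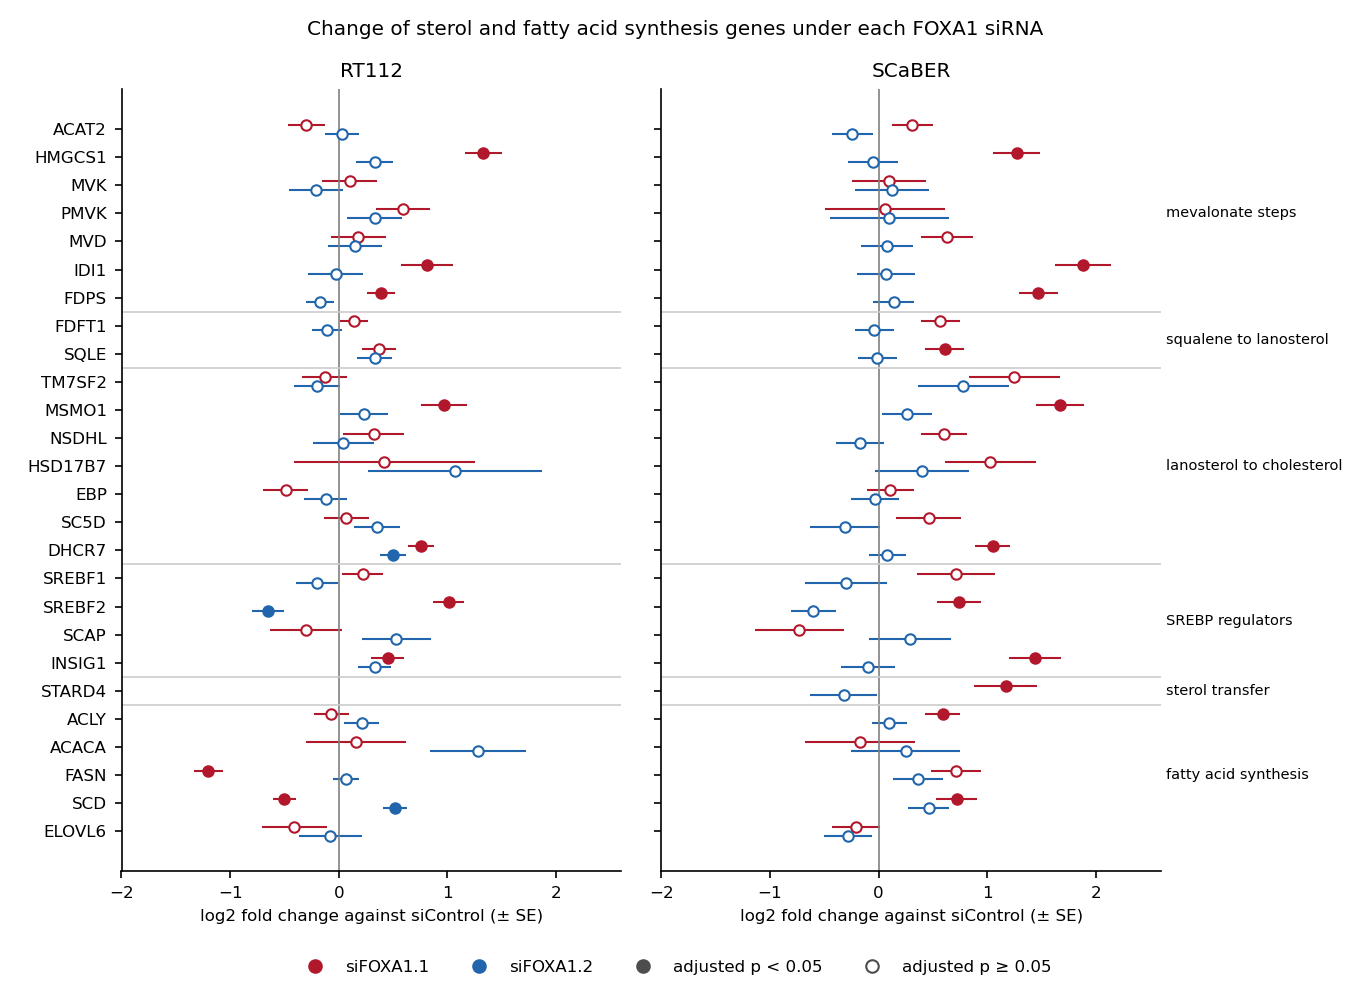
Log2 fold change (± SE) of each tested gene against the mean of both siControl siRNAs in RT112 and SCaBER, grouped by role, for siFOXA1.1 and siFOXA1.2. Filled points have an adjusted p under 0.05: 9 under siFOXA1.1 and 3 under siFOXA1.2 in RT112, and 11 and 0 in SCaBER, with SREBF2 to the right of 0 under siFOXA1.1 and to the left under siFOXA1.2 in both lines.

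The promoters of 5 of the genes that moved in RT112 are shown because they include both sterol genes that rose and a fatty acid gene that fell. They are the genes with the smallest adjusted p under siFOXA1.1 in RT112 that have an entry in the RefSeq promoter table (build GRCh38.p14), which holds 24 of the 28 genes. FASN, with a smaller adjusted p than any of these 5, has no entry. Each line gives the 250 bases before the most upstream annotated start, 5′ to 3′ on the strand of the gene. Capitals mark matches on either strand to TCACNCCAC (a sterol regulatory element), to CCAAT (the NF-Y box, ATTGG on the other strand) or to TGTTTAC (a forkhead motif), and no 2 matches overlap in these 5 windows.
HMGCS1 (chr5:43313413-43313662, minus strand): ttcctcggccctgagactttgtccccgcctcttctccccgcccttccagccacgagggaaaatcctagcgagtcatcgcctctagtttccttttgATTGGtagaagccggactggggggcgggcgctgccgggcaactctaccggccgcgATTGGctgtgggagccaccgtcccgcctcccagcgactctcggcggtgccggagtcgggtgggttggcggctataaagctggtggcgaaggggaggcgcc
SREBF2 (chr22:41832855-41833104, plus strand): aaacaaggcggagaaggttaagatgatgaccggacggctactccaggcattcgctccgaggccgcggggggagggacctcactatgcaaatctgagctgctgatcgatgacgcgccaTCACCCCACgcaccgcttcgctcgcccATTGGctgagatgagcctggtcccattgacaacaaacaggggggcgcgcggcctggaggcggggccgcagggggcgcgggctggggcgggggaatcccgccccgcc
DHCR7 (chr11:71449044-71449293, minus strand): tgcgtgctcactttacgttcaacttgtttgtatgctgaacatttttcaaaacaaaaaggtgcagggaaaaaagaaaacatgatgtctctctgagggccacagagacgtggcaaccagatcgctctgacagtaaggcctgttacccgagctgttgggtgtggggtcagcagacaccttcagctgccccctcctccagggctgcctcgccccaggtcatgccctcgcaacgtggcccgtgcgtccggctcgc
MSMO1 (chr4:165327419-165327668, plus strand): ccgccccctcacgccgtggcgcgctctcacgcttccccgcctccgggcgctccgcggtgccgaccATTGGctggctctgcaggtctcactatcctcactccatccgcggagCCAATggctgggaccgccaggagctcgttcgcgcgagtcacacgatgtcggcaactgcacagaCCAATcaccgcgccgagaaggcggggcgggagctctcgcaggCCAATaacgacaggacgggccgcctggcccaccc
SCD (chr10:100346983-100347232, plus strand): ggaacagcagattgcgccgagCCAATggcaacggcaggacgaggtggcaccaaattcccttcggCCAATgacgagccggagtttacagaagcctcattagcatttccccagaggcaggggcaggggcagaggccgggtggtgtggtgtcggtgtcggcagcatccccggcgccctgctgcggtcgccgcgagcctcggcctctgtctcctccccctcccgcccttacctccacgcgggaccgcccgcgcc

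SREBF2 held 1 sterol regulatory element and 1 CCAAT box, HMGCS1 held 2 CCAAT boxes, MSMO1 held 4 and SCD held 2, and DHCR7 held no match in this window. Over the 24 genes with an entry, 16 held a CCAAT box, 1 this form of the sterol regulatory element and 1, ELOVL6, the forkhead motif. Over all 27305 genes with an entry, windows of the same length held them in 33.0%, 0.868% and 3.01%. Each motif was searched as 1 fixed pattern, so an element with other letters was not marked, and a window without a match may still hold one. These matches describe letters in a window, and no binding was measured here.

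Among the mevalonate genes, HMGCS1, IDI1 and FDPS rose in both lines under siFOXA1.1, while ACAT2, MVK, PMVK and MVD did not pass the test in either. ACAT2 was called lower in RT112 with limma on TPM. Both its siFOXA1.1 libraries lay below all 4 controls in RT112 and above them in SCaBER. TCP1, with 22995 counts over the 16 libraries against 12397 for ACAT2, overlaps ACAT2 on the opposite strand by up to 454 exon bases. The strand setting of the counting is not known. HMGCS1 was at 43.6, 46.4, 93.1 and 75.9 normalised CPM in the RT112 siControl libraries (siControl.1 replicates 1 and 2, then siControl.2 replicates 1 and 2) and at 131 and 175 under siFOXA1.1. Both siFOXA1.1 libraries lay above all 4 controls, though siControl.2 was itself above siControl.1. The log2 fold change was 1.33 ± 0.17 (SE, adjusted p = 7.55e-06). Under siFOXA1.2 HMGCS1 was at 69.0 and 85.2, within the control range (0.33 ± 0.17, adjusted p = 0.481). In SCaBER it was at 173, 216, 253 and 216 in the controls and at 356 and 676 under siFOXA1.1. The replicates under siFOXA1.1 were far apart, with log2 differences from their own batch of 0.74 and 1.65, but both lay above every control (1.27 ± 0.22, adjusted p = 0.00238). Without siFOXA1.1 replicate 2 the value was 0.73 (adjusted p = 0.030). Under siFOXA1.2 it was at 227 and 186 (-0.05 ± 0.23, adjusted p = 0.999).

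IDI1, the isopentenyl diphosphate isomerase, had the largest log2 fold change of the 26 genes tested in SCaBER. Its SCaBER controls were at 25.4, 20.1, 18.3 and 17.9 normalised CPM and its siFOXA1.1 libraries at 66.0 and 83.2 (1.88 ± 0.26, adjusted p = 0.000396), with 20.4 and 22.2 under siFOXA1.2. In RT112 the controls were at 42.3, 46.4, 40.8 and 45.0 and the siFOXA1.1 libraries at 60.2 and 90.1 (0.81 ± 0.24, adjusted p = 0.0154). The siFOXA1.2 libraries of RT112 lay on either side of the controls, at 28.8 and 56.2. The RT112 call was lost without siFOXA1.1 replicate 2 (0.49, adjusted p = 0.232) and without replicate 1 of siControl.1 or of siControl.2 (0.77, adjusted p = 0.0533 for each).

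FDPS, which makes farnesyl diphosphate, was at 210, 147, 326 and 245 normalised CPM in the SCaBER controls and at 594 and 662 under siFOXA1.1, well clear of them (1.47 ± 0.18, adjusted p = 0.000208). Under siFOXA1.2 it was at 267 and 232. In RT112 the controls were at 133, 128, 148 and 182 and the siFOXA1.1 libraries at 182 and 197, so the groups met at the upper control (0.39 ± 0.13, adjusted p = 0.028). That call was lost when any library of the comparison other than siControl.2 replicate 2 was left out, with values of 0.31 to 0.44. The siFOXA1.2 libraries were at 127 and 132.

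**Figure D3:**
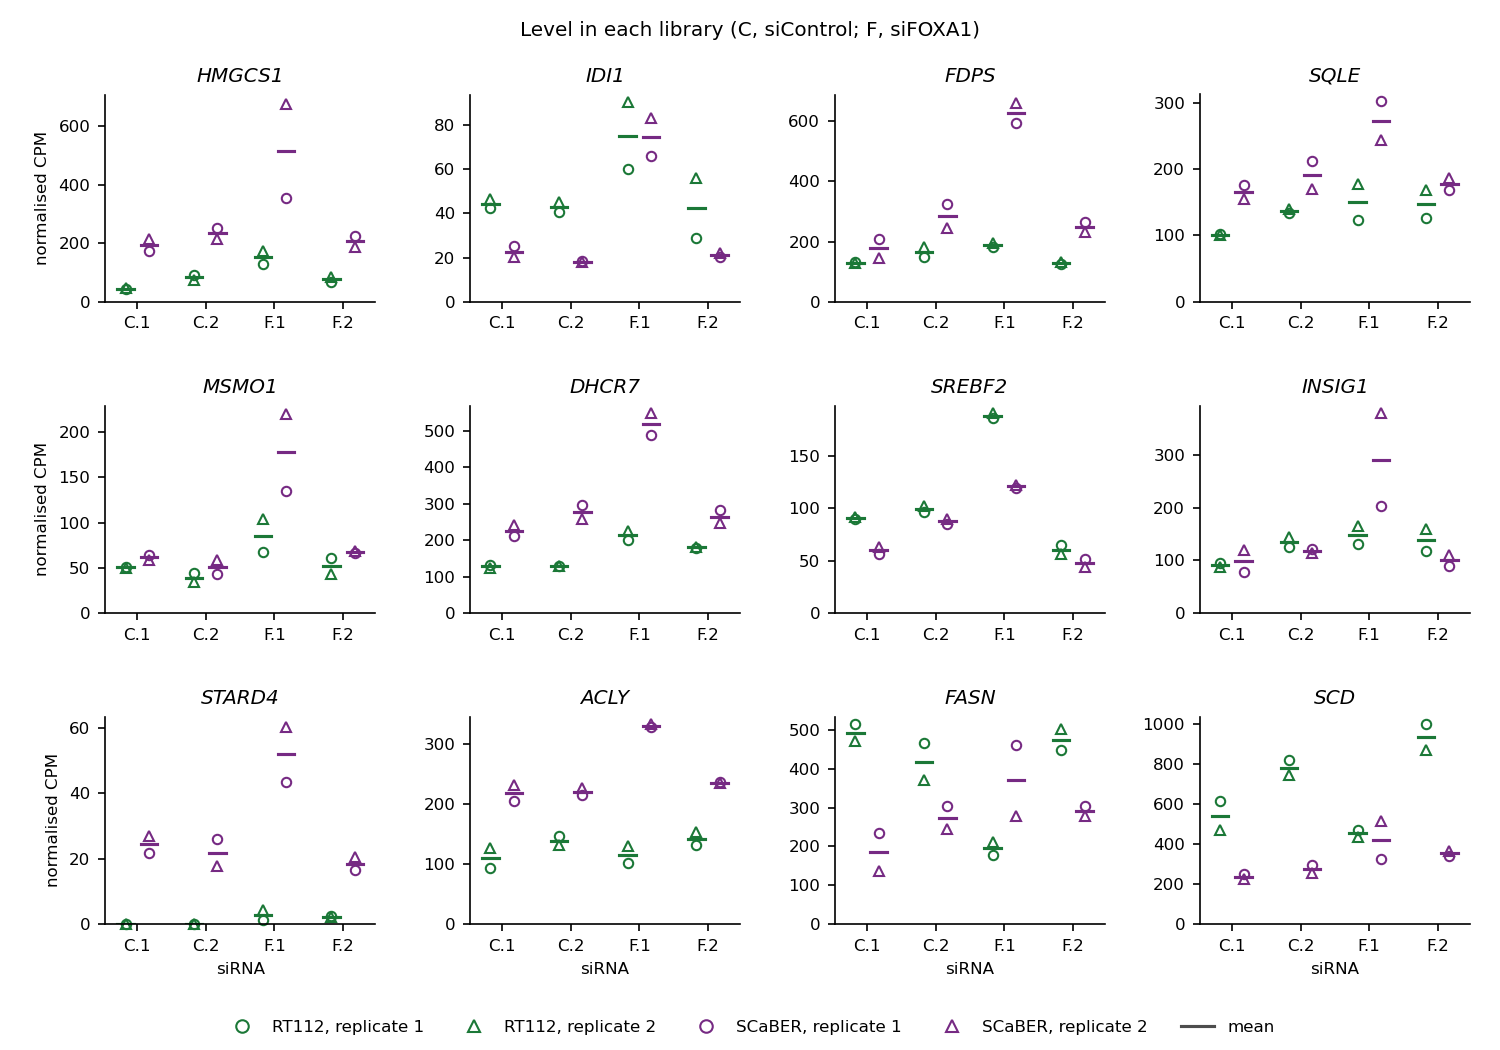
Normalised CPM (linear axes from 0) of the 12 genes called under a FOXA1 siRNA in either line, in every library by siRNA, with RT112 in green and SCaBER in purple, circles for replicate 1, triangles for replicate 2 and lines for the means. In SCaBER the siFOXA1.1 libraries lie above all controls except for FASN replicate 2 at 280, and in RT112 the siFOXA1.1 libraries of FASN at 179 and 211 lie below all controls.

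Of the steps from squalene to lanosterol, SQLE, the squalene epoxidase, passed in SCaBER under siFOXA1.1. It was at 175, 155, 212 and 170 normalised CPM in the controls and at 302 and 243 under siFOXA1.1, with both libraries above the controls (0.61 ± 0.18, adjusted p = 0.0452). The call did not hold without siFOXA1.1 replicate 1 (0.46, adjusted p = 0.166) or without any 1 control library (0.55 to 0.69). Without either siFOXA1.2 library, which leaves the value at 0.61 and only changes the estimate of the spread, it was also lost. Under siFOXA1.2 SQLE was at 168 and 186. In RT112 it was at 102, 101, 134 and 140 in the controls, at 122 and 177 under siFOXA1.1 (0.37 ± 0.16, adjusted p = 0.087) and at 127 and 168 under siFOXA1.2. FDFT1, the squalene synthase, had log2 fold changes under siFOXA1.1 of 0.14 ± 0.13 in RT112 and 0.57 ± 0.18 in SCaBER. The SCaBER value had an adjusted p of 0.0568 and passed with the replicate block (0.57 ± 0.17, adjusted p = 0.0378).

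Among the late sterol genes MSMO1 and DHCR7 rose in both lines under siFOXA1.1. MSMO1, a sterol C4 methyl oxidase, was at 64.6, 58.5, 43.6 and 58.3 normalised CPM in the SCaBER controls and at 135 and 220 under siFOXA1.1 (1.67 ± 0.22, adjusted p = 0.000356). As with HMGCS1, replicate 2 was the higher, and without it the value was 1.27 (adjusted p = 0.0038). Under siFOXA1.2 MSMO1 was at 65.9 and 68.7. In RT112 the controls were at 51.1, 50.2, 44.4 and 33.7, the siFOXA1.1 libraries at 67.8 and 104 (0.97 ± 0.21, adjusted p = 0.00181) and the siFOXA1.2 libraries at 60.7 and 43.6. Both siFOXA1.1 libraries lay above the controls, but without replicate 2 the call was lost (0.63, adjusted p = 0.0728).

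DHCR7 was above the controls with both siRNAs in RT112. Its RT112 controls were at 131, 125, 129 and 128 normalised CPM, its siFOXA1.1 libraries at 202 and 225 (0.76 ± 0.12, adjusted p = 0.000102) and its siFOXA1.2 libraries at 180 and 182 (0.50 ± 0.12, adjusted p = 0.0409). The 4 siFOXA1 libraries therefore lay above the 4 controls with either siRNA. The siFOXA1.2 call was lost when any 1 library of the comparison was left out (0.48 to 0.52). In SCaBER the controls were at 211, 241, 296 and 259 and the siFOXA1.1 libraries at 488 and 549 (1.05 ± 0.16, adjusted p = 0.000981). The siFOXA1.2 libraries of SCaBER, at 282 and 246, lay within the control range. The other late genes tested did not pass in either line. In SCaBER their values under siFOXA1.1 ran from 0.11 ± 0.22 for EBP, the sterol isomerase, to 1.25 ± 0.42 for TM7SF2, and NSDHL passed with the replicate block (0.59 ± 0.18, adjusted p = 0.0488). In RT112 they ran from -0.49 ± 0.21 for EBP to 0.42 ± 0.83 for HSD17B7. Both RT112 siFOXA1.1 libraries of EBP lay below the 4 controls. EBP was called lower there with library totals alone and with limma on TPM, where the medians of all genes moved to -0.14 and -0.30.

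SREBF2, the gene of SREBP2, rose under siFOXA1.1 in both lines and fell under siFOXA1.2 in RT112. There it was at 89.7, 92.0, 96.6 and 102 normalised CPM in the controls, at 186 and 191 under siFOXA1.1 and at 64.7 and 56.0 under siFOXA1.2. The siFOXA1.1 libraries lay above, and the siFOXA1.2 libraries below, all 4 controls (1.01 ± 0.14, adjusted p = 1.69e-05, and -0.65 ± 0.15, adjusted p = 0.0257). The siFOXA1.1 call held in every alternative run, whereas the siFOXA1.2 call was lost when any 1 library of the comparison was left out (-0.56 to -0.75). In SCaBER the controls were at 56.7, 62.6, 84.6 and 90, the siFOXA1.1 libraries at 120 and 122 and the siFOXA1.2 libraries at 51.4 and 44. The siFOXA1.1 change passed (0.74 ± 0.20, adjusted p = 0.0288) and the siFOXA1.2 change did not (-0.60 ± 0.21, adjusted p = 0.72), although its libraries again lay below all 4 controls. Set directly against each other, siFOXA1.1 exceeded siFOXA1.2 by 1.66 ± 0.17 in RT112 (adjusted p = 1.09e-06) and by 1.34 ± 0.24 in SCaBER (adjusted p = 0.00475). The SCaBER call against siControl was lost without siFOXA1.1 replicate 2 (0.72, adjusted p = 0.0783), without siControl.1 replicate 1 (0.70, adjusted p = 0.0698), without either siControl.2 library (0.71 and 0.77) and without either siFOXA1.2 library (0.74).

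INSIG1, the sterol-dependent anchor of SCAP, rose under siFOXA1.1 in both lines. In SCaBER it was at 77.5, 119, 122 and 113 normalised CPM in the controls, at 203 and 379 under siFOXA1.1 (1.44 ± 0.24, adjusted p = 0.00183) and at 90.1 and 110 under siFOXA1.2. The log2 differences from the controls of the same batch were 1.03 and 1.71, and without siFOXA1.1 replicate 2 the value was 0.91 (adjusted p = 0.0238). In RT112 the controls were at 94.0, 86.8, 126 and 144, the siFOXA1.1 libraries at 131 and 166 and the siFOXA1.2 libraries at 117 and 159. The groups overlapped in RT112 (0.45 ± 0.15, adjusted p = 0.0307), and that call was lost without siFOXA1.1 replicate 2 (0.27, adjusted p = 0.307), without either siControl.1 library (0.42 and 0.48) and without siControl.2 replicate 1 (0.40).

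SREBF1 and SCAP passed the test under neither siRNA in either line. SREBF1 was at 64.9, 71.0, 56.7 and 87.2 normalised CPM in the RT112 controls, at 72.7 and 87.7 under siFOXA1.1 (0.22 ± 0.19) and at 58.4 and 63.1 under siFOXA1.2 (-0.20 ± 0.19). In SCaBER it was at 26.4, 15.7, 39.6 and 22.8, then at 46.1 and 37.9 under siFOXA1.1 (0.71 ± 0.36, adjusted p = 0.262) and at 28.9 and 12.9 under siFOXA1.2 (-0.30 ± 0.38). The spread between replicates was wide here, and RAI1 overlaps SREBF1 on the opposite strand by up to 442 exon bases. SCAP was at 18.2, 24.3, 22.0 and 16.1 in the RT112 controls, at 20.6 and 11.6 under siFOXA1.1 (-0.30 ± 0.33) and at 23.9 and 34.2 under siFOXA1.2 (0.53 ± 0.32). In SCaBER it was at 26.6, 10.8, 27.4 and 18.1, at 13.1 and 11.8 under siFOXA1.1 (-0.73 ± 0.41) and at 23.5 and 27.1 under siFOXA1.2 (0.29 ± 0.38). The siFOXA1.1 and siFOXA1.2 libraries of SCAP did not overlap in either line, but the direct comparison did not pass (-0.83 ± 0.38, adjusted p = 0.115 in RT112, and -1.02 ± 0.46, adjusted p = 0.246 in SCaBER).

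STARD4 was seen in RT112 under both FOXA1 siRNAs and in no control library. Its raw counts were 0 in all 4 controls, 7 and 26 under siFOXA1.1 and 16 and 16 under siFOXA1.2. Set against 3 counts per control library, the floor used here, the mean level was 6.39-fold higher with siFOXA1.1 and 5.48-fold higher with siFOXA1.2. The siFOXA1.1 mean comes from unequal libraries, at 1.08 and 4.19 normalised CPM. These ratios allow for no counting error in the siFOXA1 libraries. It did not pass the filter on low counts in RT112 and has no main test there. Without the filter the adjusted p in edgeR was 0.00542 under siFOXA1.1 and 0.0523 under siFOXA1.2, and in DESeq2 it was 0.00146 and 0.0188. In SCaBER it was at 21.8, 26.9, 26.0 and 17.6 normalised CPM in the controls, at 43.5 and 60.4 under siFOXA1.1 (1.17 ± 0.29, adjusted p = 0.0205) and at 16.4 and 20.6 under siFOXA1.2 (-0.32 ± 0.31). The SCaBER call was lost without siFOXA1.1 replicate 2 (0.91, adjusted p = 0.152), without siControl.1 replicate 1 (1.09, adjusted p = 0.0575) and without siControl.2 replicate 2 (1.05, adjusted p = 0.0881).

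Of the 5 fatty acid genes, FASN and SCD changed differently in the lines under siFOXA1.1. FASN was at 516, 471, 466 and 371 normalised CPM in the RT112 controls, at 179 and 211 under siFOXA1.1 and at 450 and 502 under siFOXA1.2. The siFOXA1.1 libraries lay below all other RT112 libraries (-1.20 ± 0.13, adjusted p = 1.15e-06), and the siFOXA1.2 libraries lay among the controls (0.07 ± 0.12, adjusted p = 0.902). This call held in every alternative run, with values from -1.49 to -1.09. In SCaBER FASN was at 236, 136, 304 and 245 in the controls, at 462 and 280 under siFOXA1.1 (0.71 ± 0.23, adjusted p = 0.0722) and at 303 and 278 under siFOXA1.2. Replicate 2 was the lower one in the controls and under siFOXA1.1 alike, and with the replicate block the siFOXA1.1 change in SCaBER passed (0.70 ± 0.17, adjusted p = 0.0138).

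SCD was at 616, 469, 818 and 747 normalised CPM in the RT112 controls, at 469 and 437 under siFOXA1.1 and at 999 and 869 under siFOXA1.2. The siFOXA1.1 libraries met the lowest control (-0.50 ± 0.11, adjusted p = 0.00234), and the siFOXA1.2 libraries lay above all controls (0.52 ± 0.11, adjusted p = 0.0146), so that the direct difference between the 2 siRNAs was -1.02 ± 0.13 (adjusted p = 1.3e-05). The siFOXA1.2 call was lost without either siFOXA1.2 library (0.42 and 0.61) and without replicate 2 of siControl.1 or siControl.2 (0.43 and 0.49). In SCaBER SCD was at 249, 225, 295 and 256 in the controls, at 325 and 516 under siFOXA1.1 (0.72 ± 0.19, adjusted p = 0.0286) and at 340 and 365 under siFOXA1.2 (0.46 ± 0.19, adjusted p = 0.851). All 4 siFOXA1 libraries lay above the controls, but the siFOXA1.1 call rested on replicate 2, without which the value was 0.34 (adjusted p = 0.293). It was also lost without either siControl.2 library (0.76 and 0.67), without siControl.1 replicate 2 (0.68) and without either siFOXA1.2 library (0.71).

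ACLY, the ATP citrate lyase, rose in SCaBER under siFOXA1.1. The SCaBER controls were at 206, 232, 215 and 227 normalised CPM, the siFOXA1.1 libraries at 328 and 334 and the siFOXA1.2 libraries at 237 and 235. The siFOXA1.1 libraries were close together and clear of the controls (0.59 ± 0.16, adjusted p = 0.0318), but the call was lost without siFOXA1.1 replicate 2 (0.57, adjusted p = 0.063), siControl.1 replicate 1 (0.54, adjusted p = 0.0822), either siControl.2 library (0.57 and 0.61) or either siFOXA1.2 library (0.59). In RT112 ACLY was at 93.3, 127, 146 and 132 in the controls, at 102 and 130 under siFOXA1.1 (-0.07 ± 0.16) and at 131 and 153 under siFOXA1.2 (0.21 ± 0.16). ACACA, the acetyl-CoA carboxylase, and ELOVL6, a fatty acid elongase, passed under neither siRNA. ACACA was low, at 6.50 ± 1.24 (SD, n = 4) in the RT112 controls, and its largest value was 1.28 ± 0.44 under siFOXA1.2 in RT112 (adjusted p = 0.177).

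The 2 FOXA1 siRNAs differed from each other in both lines. siFOXA1.2 called 3 of the 25 genes in RT112, DHCR7 and SCD higher and SREBF2 lower, against 1.04% and 1.00% of all genes tested. In SCaBER siFOXA1.2 called 0 of 26 genes with edgeR, DESeq2 and limma, where 0.0420% of all genes were called. The unadjusted p in edgeR was under 0.05 for 2 of them and for 634 of all 11902 genes tested. In RT112, 5 genes were higher and 2 lower under siFOXA1.1 than under siFOXA1.2, against 13.0% and 15.1% of all genes. HMGCS1 (1.00 ± 0.20), SREBF2, IDI1 (0.84 ± 0.29), MSMO1 (0.73 ± 0.25) and FDPS (0.56 ± 0.15) were higher and FASN (-1.27 ± 0.14) and SCD lower. Without RT112 siFOXA1.1 replicate 2 this count fell from 7 to 4, with FDPS, IDI1 and MSMO1 lost (0.50, 0.52 and 0.40). FDPS and IDI1 were also lost without siFOXA1.2 replicate 1 (0.53 and 0.43), and FDPS and MSMO1 without siFOXA1.2 replicate 2 (0.59 and 0.51). IDI1 was lost without any 1 control library (0.83) and MSMO1 without either siControl.1 library (0.73). In SCaBER 8 genes were higher and 0 lower under siFOXA1.1, against 2.05% of all genes called higher. They were HMGCS1, IDI1, FDPS, MSMO1, DHCR7, SREBF2, INSIG1 and STARD4, with values from 0.97 ± 0.19 for DHCR7 to 1.81 ± 0.31 for IDI1. None of the 8 passed in edgeR without siFOXA1.2 replicate 1 or without siFOXA1.2 replicate 2, and HMGCS1, MSMO1 and STARD4 did not pass without siFOXA1.1 replicate 2 (0.79, 1.01 and 1.23).

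The controls were not alike in RT112. HMGCS1 (-0.90 ± 0.20, adjusted p = 0.0237) and SCD (-0.52 ± 0.13, adjusted p = 0.0378) were lower under siControl.1 than under siControl.2, in a comparison that called 1.12% of all genes lower. HMGCS1 lost its call without any 1 of the 4 control libraries (-1.04 to -0.75), and SCD without any of them but siControl.1 replicate 1 (-0.59 to -0.35) and without either siFOXA1.2 library (-0.53). In SCaBER edgeR and DESeq2 called none of the 26 between the controls, where edgeR called 0.0672% of all genes. Before adjustment 3 were under 0.05 in edgeR, as were 790 of all 11902 genes tested. Pooling both FOXA1 siRNAs, as the study's groups do, called 0 genes with edgeR in either line, where 0.108% of all genes were called in RT112 and 0.00840% in SCaBER. Before adjustment 3 of the 25 genes in RT112 and 9 of the 26 in SCaBER were under 0.05 in edgeR. Over all genes these were 1454 of 11986 in RT112 and 1059 of 11902 in SCaBER. The RT112 count lies near the share of all genes. DESeq2 called 2 genes in RT112, where it called 179 of all 19885 genes in its fit. In SCaBER it called 0, where it called 37 of 20017. DHCR7 had the smallest p of these genes in the pooled comparison of RT112 (0.63 ± 0.15, adjusted p = 0.213 in edgeR).

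The change under siFOXA1.1 was compared between the lines directly, with the difference taken as RT112 minus SCaBER (the plot of changes in both lines). 4 of the 26 genes passed, where 3.14% of 13701 genes did. FASN differed most of those measured above the floor in both lines, by -1.92 ± 0.29 (adjusted p = 0.00109), and SCD by -1.23 ± 0.24 (adjusted p = 0.00775). FDPS rose in both lines and rose more in SCaBER (-1.10 ± 0.24, adjusted p = 0.0151), a difference that no longer passed without RT112 siFOXA1.1 replicate 1 (-1.05, adjusted p = 0.068). The remaining one, STARD4, entered the fit through SCaBER, and its fitted difference depends on the RT112 controls at 0 and is given no size here. It lost the call without RT112 siFOXA1.1 replicate 2 (adjusted p = 0.0503) and changed sign with limma on TPM. For HMGCS1 the difference was 0.04 ± 0.30, for SREBF2 0.25 ± 0.23 and for DHCR7 -0.31 ± 0.20, and none of these passed. IDI1, INSIG1 and TM7SF2 had differences of -1.09 ± 0.38, -1.01 ± 0.33 and -1.40 ± 0.45 that did not pass (adjusted p = 0.14, 0.108 and 0.104). Under siFOXA1.2 the 1 gene called was again STARD4, where 0.0438% of all genes passed, and it was lost without any 1 of the 4 siFOXA1.2 libraries and with limma on TPM.

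**Figure D4:**
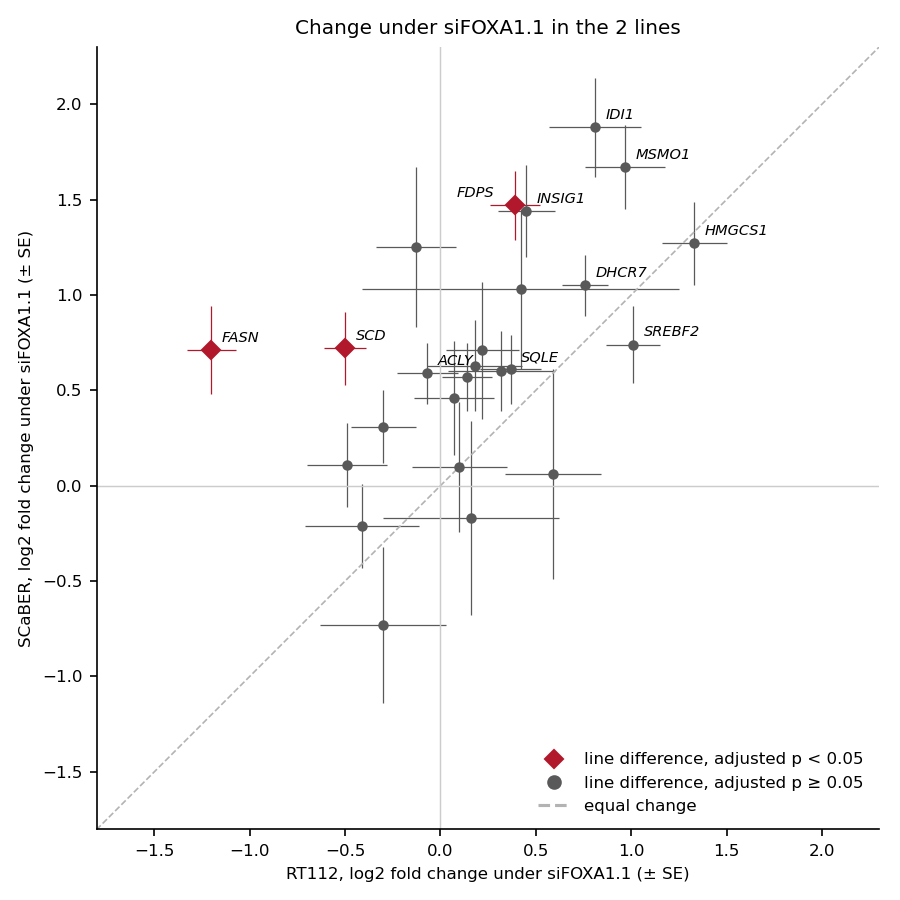
Log2 fold change under siFOXA1.1 (± SE) in RT112 (horizontal) and SCaBER (vertical) for the 25 genes tested in both, with the dashed line at equal change. Diamonds mark FASN, SCD and FDPS, whose change differed between the lines at an adjusted p under 0.05, FASN and SCD lying left of 0 in RT112 and above 0 in SCaBER.

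Other genes of the same pathways were also called. Of 19 further genes of sterol sensing, transport and esterification, 18 were tested in each line. In RT112 siFOXA1.1 left 8 of them higher and 2 lower, and in SCaBER 2 higher and 0 lower. For all genes the shares called higher and lower were 15.6% and 17.0% with RT112, and with SCaBER 4.47% and 4.79%. NPC1, which exports cholesterol from lysosomes, rose in both lines, by 1.35 ± 0.23 in RT112 (adjusted p = 0.000215) and 1.27 ± 0.34 in SCaBER (adjusted p = 0.0298). Its partner NPC2 rose in RT112 by 1.1 ± 0.14 and was at 0.21 ± 0.21 in SCaBER. SOAT1, which esterifies cholesterol, rose in SCaBER by 1.24 ± 0.33. MBTPS1, the Golgi protease that makes the first cut of SREBP precursors, rose in RT112 under both siRNAs (0.75 ± 0.16 and 0.71 ± 0.16), and TMEM97, a sterol-regulated membrane protein, fell under both (-1.06 ± 0.17 and -0.69 ± 0.17, adjusted p = 0.000123 and 0.0401).

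Of 18 further fatty acid genes, 16 were tested in RT112 and 18 in SCaBER, with 2 higher and 4 lower under siFOXA1.1 in RT112 and 2 higher and 2 lower in SCaBER. In RT112 these counts lie near the shares of all genes (15.6% and 17.0%), and in SCaBER those shares were 4.47% and 4.79%. FADS1, the delta-5 desaturase, fell in RT112 (-3.70 ± 0.39, adjusted p = 1.15e-06) and in SCaBER (-1.87 ± 0.19, adjusted p = 3.98e-05). HACD3, of the elongation cycle, fell too (-0.58 ± 0.11 and -0.85 ± 0.20), and HSD17B12, of the same cycle, fell in RT112 (-2.34 ± 0.32) and had a value of -0.85 ± 0.28 in SCaBER (adjusted p = 0.0707). LPIN1, a phosphatidate phosphatase, rose by 1.65 ± 0.20 in RT112 and 0.93 ± 0.21 in SCaBER. ACSL4, an acyl-CoA synthetase, rose in SCaBER by 1.17 ± 0.22. Under siFOXA1.2 the median of this list was 0.23 in RT112 and 0.06 in SCaBER.

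Other groups moved with the siFOXA1.1 libraries. Of 20 cell cycle genes, 19 fell in RT112 and 18 in SCaBER, with median log2 fold changes of -2.38 and -1.33, where 17.0% and 4.79% of all genes were called lower. Of the interferon-stimulated genes tested, 8 of 11 rose in RT112 and 11 of 12 in SCaBER, with medians of 2.39 and 2.45, where 15.6% and 4.47% of all genes were called higher. Under siFOXA1.2 the medians were -0.09 and -0.11 for the cell cycle genes and -0.05 and -0.33 for the interferon-stimulated genes. Of the luminal markers tested, 4 of 5 fell in RT112 (median -0.82) and 1 of 4 in SCaBER (median -0.38). Of the basal markers tested, 2 of 6 rose and 1 fell in RT112 and 1 of 7 rose in SCaBER. Of the 2 stromal markers tested in RT112, COL1A1 rose (2.80 ± 0.28) and LUM fell (-0.78 ± 0.16). The share of mitochondrial counts was 25.7% and 28.2% in the RT112 siFOXA1.1 libraries and 18.0% to 21.2% in the other RT112 libraries, against 10.3% to 12.1% over all SCaBER libraries. The part of these differences in the changes of the sterol and fatty acid genes was not tested. In bulk RNA, fewer cells of 1 kind and less RNA per cell cannot be told apart.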

How the data were processed

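Libraries were made by 3' RNA-seq (QuantSeq 3' mRNA FWD kit) from 16 samples of transfected cells, and a tag near the 3' end of each transcript was counted. The authors deposited raw read counts, not normalised, and separately TPM values of the same libraries. The submitters' processing notes name TrimGalore 0.6.2 (minimum quality 20, minimum length 10), STAR 2.6.1a and GENCODE 29. The strand setting of the counting was not given in the sources used here, and the deposited configuration and the study's methods name different genome builds, so coordinates come only from the RefSeq promoter table.

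Counts were tested with edgeR 4.0.16 in R 4.3.3 by the quasi-likelihood F test, after TMM scaling and edgeR's filter on low counts, with 1 mean per siRNA and siControl taken as the mean of both control siRNAs. P-values were adjusted by Benjamini-Hochberg over all genes tested, with a threshold of 0.05, and standard errors were taken as the absolute log2 fold change over the square root of F. The study's own tool, DESeq2 (1.42.0), and limma 3.58.1 on log2(TPM + 1) of the deposited TPM values were alternatives, beside other scalings, no filter, a filter set by siRNA groups (chosen after seeing the data), a replicate block and leaving out each library. Fold changes on the log2(TPM + 1) scale understate the change of low genes. The edgeR fit of siFOXA1.1 against siControl was run on simulated counts as a check. The floor of 3 counts per library corresponds to 0.394 to 0.662 CPM and covers counting error only.

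The replicate numbers mark an experiment batch in the labels. Deviations from the siRNA means correlated by -0.0184 to 0.0137 between same-numbered libraries in RT112 and by 0.0187 to 0.200 in SCaBER, over 6 pairs of siRNAs in each. Values in every library are given for genes with an adjusted p under 0.05 under either FOXA1 siRNA in either line (at most 12) and for SREBF1, SREBF2, SCAP and INSIG1. The genes and lists were chosen with earlier results of these data known.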

Additional observations from a re-analysis of the deposited data

Results flagged for a closer look

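The change under siFOXA1.1 differed between the lines, as RT112 minus SCaBER, for FASN (-1.92, adjusted p = 0.00109), SCD (-1.23, adjusted p = 0.00775), FDPS (-1.10, adjusted p = 0.0151) and STARD4 (fitted value 5.94, adjusted p = 0.00928), by the edgeR test of the difference itself. Under siFOXA1.2 the difference for STARD4 was fitted at 7.22 (adjusted p = 0.0196). Both STARD4 values depend on the small prior count added where the RT112 controls are at 0 and give no size.

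LSS had 1 siControl library apart from the others in each line. It was at 0.264 normalised CPM in RT112 siControl.1 replicate 1 and at 0.646 in SCaBER siControl.2 replicate 2, both from 0 to 3 counts. Of 56 groups of 4 libraries, those at 0 throughout (CYP51A1 in both lines and STARD4 in RT112) could not be examined. In the others chance sets a library apart in about 1 group in 20. That rate does not hold for LSS, because any count stands apart where the other libraries of the group are at 0.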

How the results depend on the processing

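Of 61 results for single genes, 31 kept their direction and their side of the threshold under every alternative run, FOXA1 included. On log2(TPM + 1) with limma the genes called numbered 0 under siFOXA1.2 in RT112, 0 between the RT112 controls, 4 under siFOXA1.1 in SCaBER, 3 between the siRNAs in SCaBER and 0 for the line difference under siFOXA1.2, whereas 20 were called between the lines under siControl, and the STARD4 line difference under siFOXA1.1 reversed to -0.32. DESeq2 called 2 genes in the pooled RT112 comparison, and keeping every gene with at least 1 count called 5 in the pooled SCaBER comparison. The cause of these shifts was not tested. Leaving out each library in turn gave 0 to 4 genes called under siFOXA1.2 in RT112, 4 to 8 between the siRNAs and 0 to 2 between the controls in RT112, 6 to 11 under siFOXA1.1 and 0 to 9 between the siRNAs in SCaBER, and 0 to 1 for the line difference under siFOXA1.2. Under siFOXA1.1 in RT112 it gave 7 to 11, for the lines under siControl 14 to 16 and for the line difference under siFOXA1.1 3 to 6.

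With the replicate block, 14 genes were called under siFOXA1.1 in SCaBER (FASN, FDFT1 and NSDHL added). Between the siRNAs there 9 were called (NSDHL added, 0.76 ± 0.22, adjusted p = 0.0469 in edgeR), and no other call of the listed genes changed. The block also raised the calls over all 11902 genes tested in SCaBER. They went from 1102 to 1385 under siFOXA1.1 and from 577 to 807 between the siRNAs. Over all genes, siFOXA1.1 in SCaBER called 1102 with edgeR, 550 with limma on TPM and 1423 with DESeq2, and siFOXA1.2 in RT112 called 245, 57 and 370. Under siFOXA1.1 in RT112 the split of all genes called was 1870 higher and 2033 lower, 1452 and 2482 with library totals alone, and 811 and 2788 on TPM. With 2 libraries per siRNA, genes of low level such as ACACA and HSD17B7 had standard errors of 0.42 to 0.83 under siFOXA1.1. Changes well above 1 standard error could also go uncalled, as for ACACA under siFOXA1.2 in RT112 (1.28 ± 0.44, adjusted p = 0.177 in edgeR).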
